A study of Arabidopsis thaliana with 24 samples.

Results

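Messenger RNA of 8 genes of the histone H3 lysine 4 (H3K4) methylation machinery was followed in Arabidopsis thaliana seedlings, chosen by their AGI locus identifiers from the 32548 genes of the deposited tables. Among the 8, 4 encode core COMPASS subunits, namely WDR5A (AT3G49660), WDR5B (AT4G02730), RBL (AT3G21060) and ASH2R (AT1G51450). The other 4 encode SET-domain methyltransferases outside the ATX1 to ATX5 group, namely ATXR3 (AT4G15180, also SDG2), ATXR7 (AT5G42400, also SDG25), ASHH2 (AT1G77300, also SDG8 or EFS) and ASHR3 (AT4G30860, also SDG4). All 8 passed the filter on low values in each of the 3 tables. Their values in the 24 libraries lay between 71.1 and 2898 normalised reads.

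COMPASS is a multi-subunit complex in which a SET-domain enzyme transfers methyl groups to H3K4, a mark found at the start of transcribed genes. The enzyme works on a shared core: a WDR5 protein, a WD40-repeat scaffold that holds histone H3 and the enzyme; an RbBP5 protein, in plants RBL; and an Ash2 protein, in plants ASH2R. Arabidopsis carries several H3K4 enzymes, the ATX proteins, ATXR3 and ATXR7 among them, while WDR5A, RBL and ASH2R are shared. In this species the core subunits and ATXR7 are known for keeping the floral repressor FLC active, and ATXR3 for most of the trimethylated H3K4 of the plant. ASHH2 is best known as an H3K36 methyltransferase, so the group is not made of H3K4 enzymes alone.

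RNA was sequenced from whole seedlings of 11 days kept on plates under long days (16 h light at 23 °C, then 8 h darkness at 22 °C). Set 1 held wild-type Col-0 and ino80, homozygous for a mutation of the chromatin remodeller gene INO80. Set 2 held Col-0, jmj24, homozygous for a mutation of the JmjC-domain gene JMJ24, and atx4/5;jmj24, which carries homozygous atx4, atx5 and jmj24 mutations. Set 3 held Col-0, the homozygous double mutants atx1/2 and atx4/5, the homozygous quadruple mutants atx1/2/4/5 and atx2/3/4/5, the homozygous triple mutant jmj24/26/28, and WDR5A_RNAi, a line labelled as RNA interference against WDR5A. Each of these 12 groups had 2 libraries, and Col-0 of the same set served as control for each genotype, so comparisons within a set share their controls. Genotypes are given as labelled, although WDR5A in WDR5A_RNAi and ATX3 in atx2/3/4/5 were higher than in Col-0. ATX2 and ATX1 were not called lower in the lines labelled for them, although ATX1 in atx1/2 lay below both Col-0 libraries. The labels name no allele numbers, and for the RNAi line no promoter, no targeted stretch and no number of lines. Nothing in the labels says that the 2 libraries of a group came from separate plates, and the spread behind each p-value may therefore be technical.

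Depth, estimated from the most common low value of a column, ran from 18.8 to 33.6 M reads a library, and 1 read was worth 0.835 to 1.165 in the normalised values, so the lowest value of a member, 71.1, rests on about as many reads. Seedling tissue was marked by the summed level of 3 green-shoot genes (RBCS1A, LHCB1.3 and PSAD1), which lay between 0.493 and 0.991 M in all 24 libraries, against 4.95 to 34.1 for 3 floral genes (AP3, AG and AP1). In set 3 the 4 libraries of the quadruple mutants stood apart. Their column totals were 25.2 to 26.2 M against 27.8 to 29.2 M in the other 10, and their green-shoot sum was 0.562 to 0.689 M against 0.867 to 0.991 M. A sum of 3 seed genes (OLEO1, CRA1 and OLEO2) was 1075 to 2539 in the quadruple mutants, 2175 to 2696 in jmj24/26/28 and 25.4 to 711 in the other 8 libraries of the set, Col-0 among them at 258 to 453. It was also higher in ino80, at 90.5 to 582 against 8.24 to 22.8 in its Col-0. In set 2 it was 112 to 431 in jmj24 and 28.6 to 66.2 in atx4/5;jmj24, against 5.36 to 7.06 in Col-0. A sum of 3 root genes (PHT1;1, PRP3 and TIP2;3) was 5384 to 6102 in the quadruple mutants against 4390 to 6491 in the other 10. In ino80 the root sum was 4713 to 4880 against 3470 to 3675 in its Col-0. The root genes did not move together there. PHT1;1 and PRP3 were called higher (log2 fold changes 0.46 and 0.62) and TIP2;3 lower (-0.90). In atx2/3/4/5 PRP3 was likewise called higher (0.69) and TIP2;3 lower (-0.71). In set 2 the root sum was 4838 to 5107 in jmj24 and 4140 to 4340 in atx4/5;jmj24, against 3697 to 4037 in Col-0. In ino80 the green-shoot sum was 0.493 to 0.505 M against 0.581 to 0.629 M in its Col-0. In set 2 the green-shoot sum was 0.514 to 0.516 M in atx4/5;jmj24 and 0.593 to 0.608 M in jmj24, against 0.609 to 0.612 M in Col-0. The part of these differences in the results below was not tested. Fewer cells of a type and less RNA per cell cannot be told apart in such samples.

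WDR5A and WDR5B are the closest pair of the group, and their results turn on reads being told apart. WDR5A lies on chromosome 3 (18413564 to 18415713, plus strand, 2 exons) and WDR5B on chromosome 4 (1207683 to 1209287, plus strand, 2 exons) in the TAIR10.1 RefSeq annotation. Their coding sequences of 954 and 1002 bases were identical at 601 of 936 aligned bases (64.2%). The longest identical stretch is 16 bases, shown here in capitals, 5′ to 3′, with 30 bases on either side.
WDR5A, chr3:18414144-18414219, plus strand: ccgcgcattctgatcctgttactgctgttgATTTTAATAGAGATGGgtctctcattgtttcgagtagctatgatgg
WDR5B, chr4:1208258-1208333, plus strand: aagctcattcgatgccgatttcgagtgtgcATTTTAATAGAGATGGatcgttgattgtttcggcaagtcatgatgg
Of the 76 bases of this window, 52 are identical. None of the 934 stretches of 21 bases in the WDR5A coding sequence occurs in that of WDR5B. In the transcripts of all 8 genes, 0 windows of 50 bases, the shorter of the study's 2 read lengths, were found elsewhere in the genome or in another of the 8.

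In Col-0 the methyltransferase genes ASHH2 and ATXR3 had the highest levels per length, and the WDR5 genes and ASHR3 the lowest. In set 3 the Col-0 mean was 293 normalised reads per kilobase of exon for ASHH2, 276 for ATXR3, 189 for RBL, 169 for ATXR7 and 139 for ASH2R. It was 89.9 for WDR5B, 71.9 for ASHR3 and 63.8 for WDR5A. In set 3 the Col-0 libraries of neighbours in this order did not overlap, except those of ASHR3 (70.5 and 73.2) and WDR5A (55.4 and 72.2). The order was not the same in every set: ATXR3 was first in set 2, at 337 per kilobase against 262 for ASHH2, and ASHR3 was last in set 1, at 42.4, below WDR5B at 62.8. In set 2 ATXR7 (164 per kilobase) overlapped ASH2R (155), and in set 1 WDR5A (69.5) overlapped WDR5B (62.8). Sets were normalised separately, so levels are ranked within a set only.

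**Figure D1:**
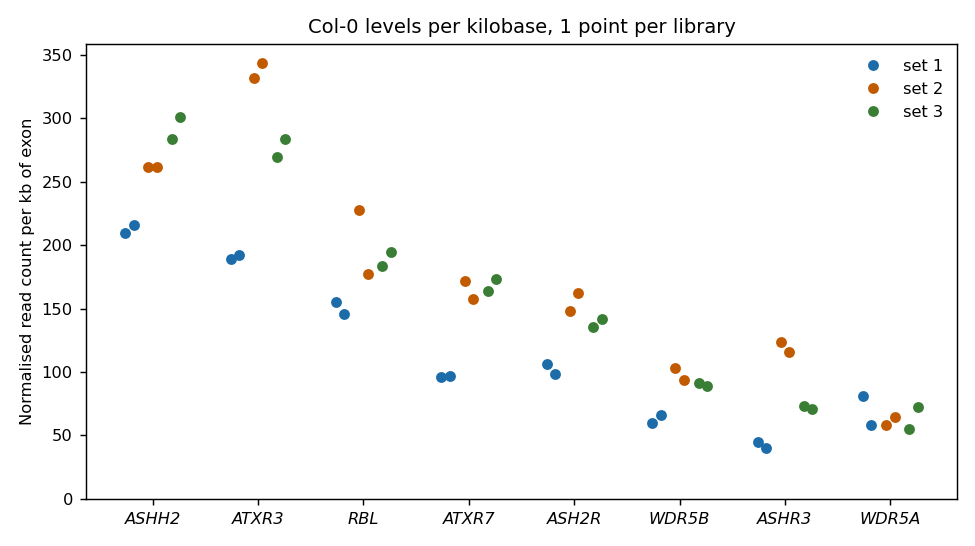
Level of each gene in Col-0, in normalised reads per kilobase of exon on a linear axis, with 1 point per library (2 in each set) and colours for the 3 sets. ASHH2 and ATXR3 lie highest in each set, and WDR5A lies at 55.4 and 72.2 in set 3.

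Across the 9 genotypes set against Col-0, the 8 genes gave 72 tests with limma on log2(value + 1), with p-values adjusted over all genes of a table by the Benjamini-Hochberg method. Of these, 4 passed an adjusted p of 0.05, all higher in the mutant, none was lower, and 68 did not pass. An unadjusted p was under 0.05 in 7. WDR5A accounted for 2 of the 4 calls, and ATXR3 and WDR5B for 1 each. All 4 fell in atx1/2/4/5, atx2/3/4/5 and WDR5A_RNAi. In these, 33.3%, 38% and 9.56% of all genes tested were called, and 16.2%, 17.8% and 4.52% were called higher.

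**Figure D2:**
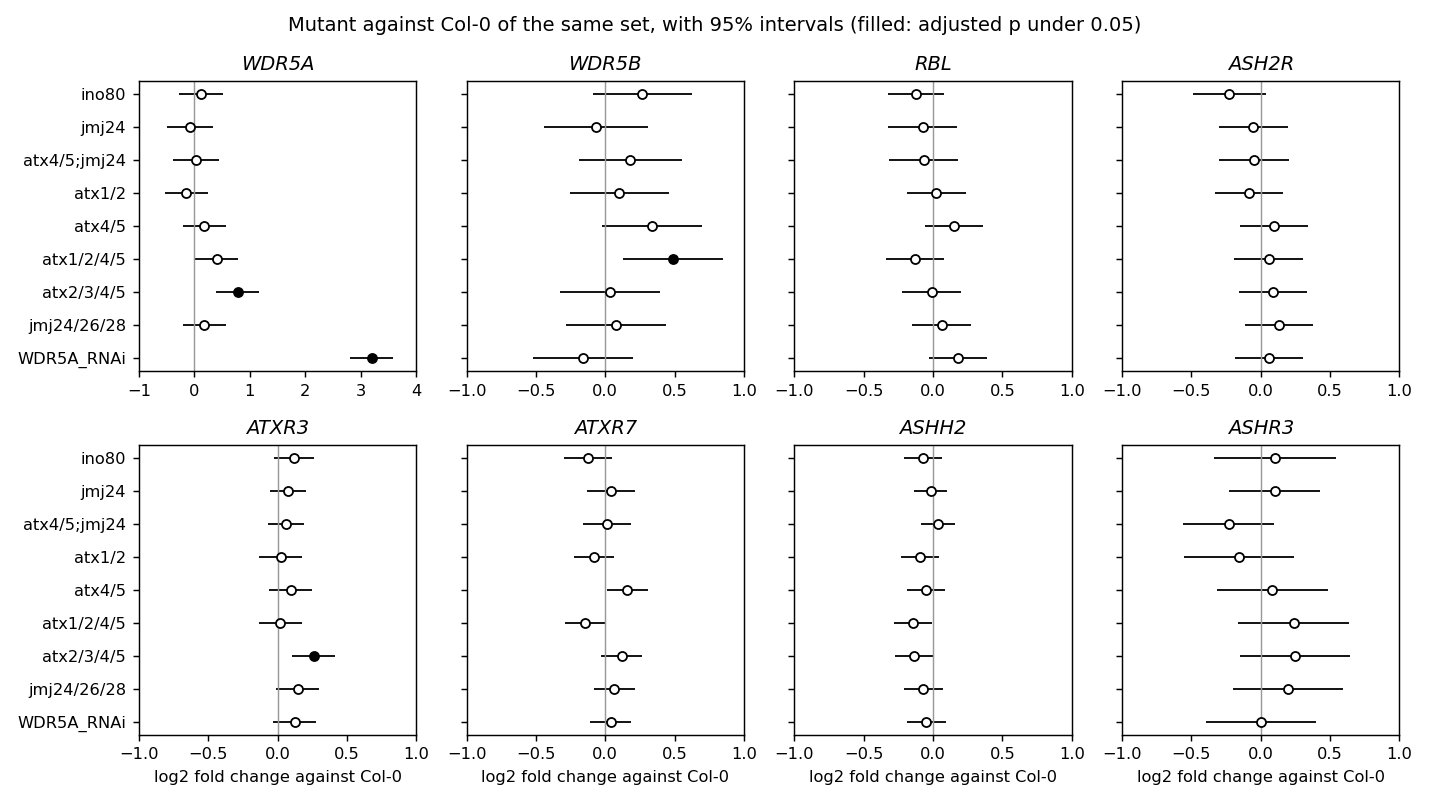
Log2 fold change of each gene in each of 9 genotypes against Col-0 of the same set (points, with 95% intervals from limma; filled where the adjusted p is under 0.05). The WDR5A axis is wider than the others; WDR5A in WDR5A_RNAi is at 3.19, and the other 3 filled points are WDR5A (0.78) and ATXR3 (0.26) in atx2/3/4/5 and WDR5B (0.49) in atx1/2/4/5.

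WDR5A, the WD40 scaffold of the core, was high in the libraries labelled WDR5A_RNAi, at 870 and 965 normalised reads against 86.9 and 113 in Col-0 of the set. Both libraries lay above all 22 others of the study, which ran from 80.1 to 180. The log2 fold change was 3.19 ± 0.18 (SE; adjusted p = 3.24e-07), a 9.15-fold higher level with a 95% interval of 2.81 to 3.58 on the log2 scale. Against the direction its label names, the targeted gene was therefore higher, and any direction drawn from these libraries below is that of the libraries as labelled. The values count reads of the whole gene, and reads of the native transcript and of a transgene that carries WDR5A sequence cannot be told apart in them.

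None of the 3 genes looked up beside WDR5A was called higher in these libraries. AT3G49645 was at 210 and 226 in the libraries labelled WDR5A_RNAi against 189 and 232 in Col-0, and AT3G49650, which also neighbours WDR5A, was at 386 and 378 against 360 and 466. BAM2, another neighbour, which encodes a receptor-like kinase of the CLAVATA1 family, fell, at 1267 and 1055 against 1613 and 1625 (log2 fold change -0.49, adjusted p = 0.00123). BAM2 was also called lower in atx1/2/4/5 (-0.34) and atx2/3/4/5 (-0.32), so on the deposited scale its fall was not particular to WDR5A_RNAi. With all column totals made equal, BAM2 was at -0.20 and -0.13 in these 2 mutants and at -0.47 in WDR5A_RNAi. These neighbours were looked up after the WDR5A values were seen.

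The other 7 genes did not pass the test in WDR5A_RNAi, where 9.56% of all genes tested did. WDR5B, the paralog, was at 110 and 98.8 against 118 and 115 in Col-0, below both (log2 fold change -0.16 ± 0.17, adjusted p = 0.605). RBL was at 483 and 522 against 431 and 456, above both (0.18 ± 0.10, adjusted p = 0.278). The 95% interval was -0.52 to 0.20 for WDR5B and -0.03 to 0.39 for RBL. ASH2R, at 271 and 285 against 261 and 272, overlapped Col-0. In this comparison the median size of the log2 fold change was 0.09 over the 8 genes and 0.19 over all genes.

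**Figure D3:**
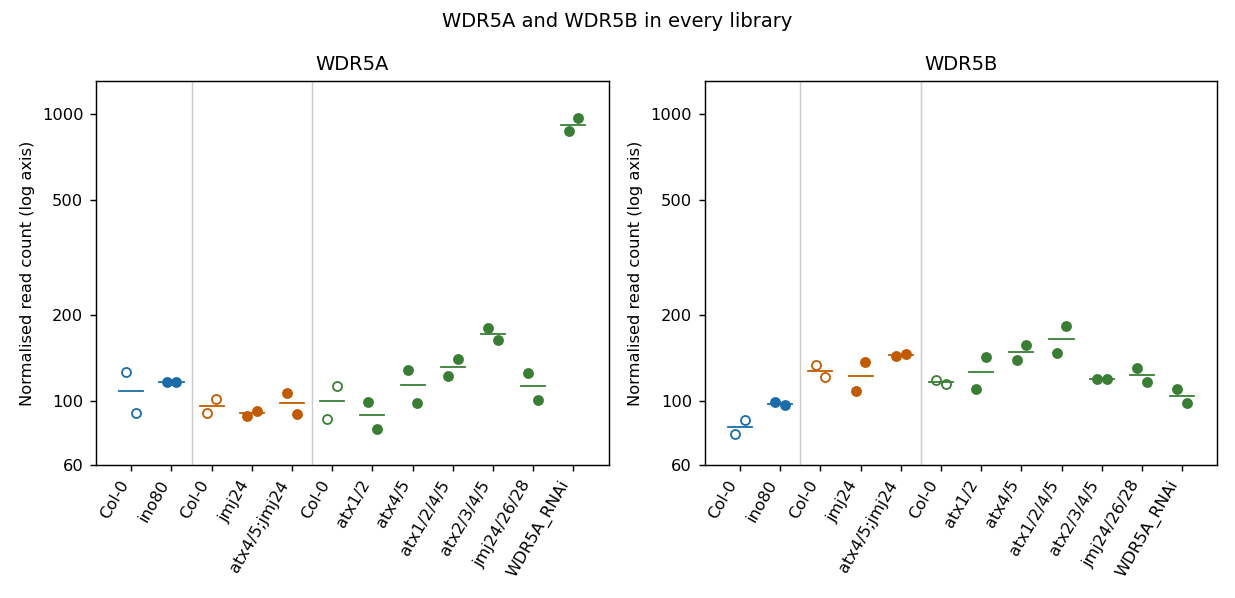
WDR5A (left) and WDR5B (right) in every library, in normalised reads on a log axis, by genotype and set (vertical lines part the 3 sets, open points are Col-0, bars are means of 2 libraries). WDR5A is at 870 and 965 in WDR5A_RNAi and at most 180 elsewhere; WDR5B lies between 77.3 and 183 throughout.

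WDR5A was also higher in atx2/3/4/5, at 180 and 163 against 86.9 and 113 in Col-0. The groups did not overlap, and the log2 fold change was 0.78 ± 0.18 (adjusted p = 0.00298), in a comparison in which 38% of all genes were called. In atx1/2/4/5 WDR5A was at 123 and 141, above both Col-0 libraries, but did not pass (0.40 ± 0.18, adjusted p = 0.106). The difference between the 2 quadruple mutants did not pass either (-0.38 ± 0.18 for atx1/2/4/5 against atx2/3/4/5, adjusted p = 0.190). When all column totals were made equal (an alternative added once the values had been seen), WDR5A was called in both, with log2 fold changes of 0.97 and 0.54, beside shifts of the median gene of 0.17 and 0.13.

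In the remaining genotypes WDR5A stayed uncalled. In set 3 it was at 99.7 and 80.1 in atx1/2, 128 and 98.8 in atx4/5, and 126 and 101 in jmj24/26/28, each overlapping Col-0. In set 2 it was at 89.1 and 92.6 in jmj24 and 107 and 90.6 in atx4/5;jmj24, against 90.9 and 102 in Col-0. In set 1 it was at 116 and 117 in ino80, between the Col-0 libraries at 127 and 91.1. Over the 7 uncalled comparisons the 95% intervals ran from 0.689-fold to 1.73-fold.

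WDR5B encodes a second WDR5 protein, close in sequence to WDR5A. It was called in atx1/2/4/5 alone, at 147 and 183 against 118 and 115 in Col-0 (log2 fold change 0.49 ± 0.17, adjusted p = 0.0362). The groups did not overlap, and 33.3% of all genes were called in this comparison. Without Col-0 replicate 1, Col-0 replicate 2 or atx1/2/4/5 replicate 2, the adjusted p was 0.0927, 0.124 and 0.275, and it was 0.0556 with no filter on low values. In atx2/3/4/5 WDR5B was at 119 and 120, with means apart by less than the gap between the Col-0 libraries (0.03 ± 0.17, adjusted p = 0.917). The difference between the quadruple mutants, 0.45 ± 0.17, had an adjusted p of 0.0838.

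In atx4/5 WDR5B was at 139 and 157, above both Col-0 libraries, without passing (0.34 ± 0.17, adjusted p = 0.362). In atx1/2 it was at 110 and 142 and in jmj24/26/28 at 130 and 117. In set 2 it was at 108 and 137 in jmj24 and at 143 and 147 in atx4/5;jmj24, against 134 and 122 in Col-0. In set 1 it was at 99.2 and 97.4 in ino80 against 77.3 and 85.8 (0.27 ± 0.16, adjusted p = 0.270).

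Within a library the ratio of the paralogs does not depend on the scaling of that library. WDR5A per kilobase was 0.465 to 1.36 times WDR5B in the 22 libraries outside WDR5A_RNAi (median 0.704), and 6.54 and 8.08 times in the 2 libraries labelled WDR5A_RNAi. In atx2/3/4/5 the ratio was 1.13 and 1.25 against 0.607 and 0.814 in Col-0 of the set, so these libraries did not overlap Col-0. In atx1/2/4/5 both genes were above Col-0, and the ratio, 0.692 and 0.635, lay within the Col-0 range.

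**Figure D4:**
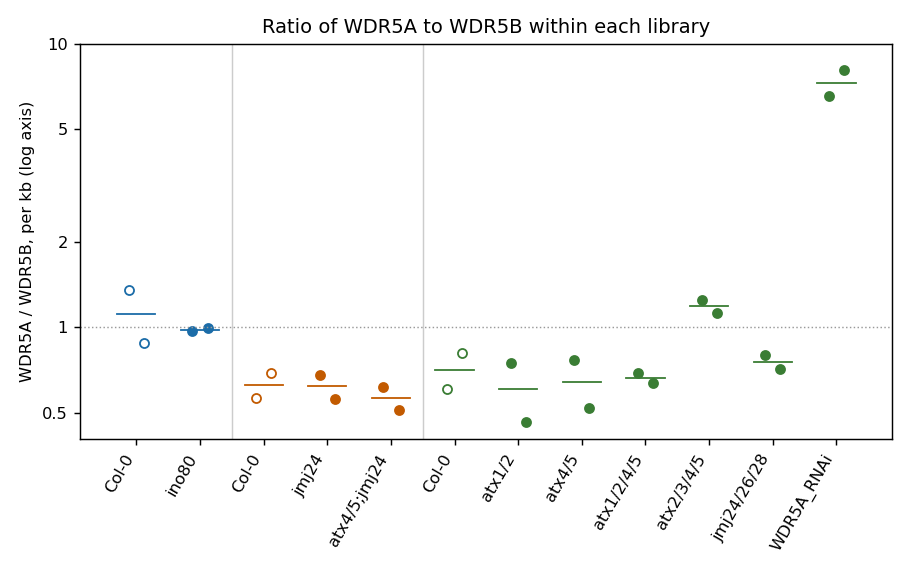
Ratio of WDR5A to WDR5B per kilobase of exon within each library, on a log axis, by genotype and set (open points Col-0, bars means of 2 libraries, dotted line at equal levels). The 2 libraries labelled WDR5A_RNAi are at 6.54 and 8.08, and all 22 others lie between 0.465 and 1.36.

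RBL and ASH2R, the RbBP5 and Ash2 subunits, passed in 0 of 9 comparisons each, with no unadjusted p under 0.05. RBL lies on chromosome 3 (7377391 to 7380213, plus strand, 5 exons) and ASH2R on chromosome 1 (19074328 to 19076545, plus strand, 2 exons). RBL ran from 383 to 522 normalised reads in set 3, with a median of 463 over 14 libraries. The lowest library was atx1/2/4/5 replicate 1 and the highest WDR5A_RNAi replicate 2. RBL was at 383 and 428 in atx1/2/4/5 against 431 and 456 in Col-0, below both. In atx4/5 it was at 493 and 491, above both, and neither difference passed. In set 2 the RBL values of Col-0, 535 and 417, were the highest and the lowest of the set and enclosed all 4 mutant libraries.

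ASH2R ran from 236 to 317 in set 3, from 274 to 313 in set 2 and from 163 to 204 in set 1. Its most distant genotype was ino80, at 174 and 163 against 204 and 190 in Col-0, below both (log2 fold change -0.23 ± 0.12, adjusted p = 0.208). Over 9 comparisons the 95% intervals of the log2 fold change spanned -0.34 to 0.39 for RBL and -0.49 to 0.38 for ASH2R. The ratio of RBL to ASH2R per kilobase was 1.09 to 1.63 in the 22 libraries outside WDR5A_RNAi (median 1.36) and 1.46 and 1.50 in WDR5A_RNAi. Within set 3 the ratio was 1.35 and 1.37 in Col-0 and 1.11 to 1.48 in the 10 libraries of the other mutants. Both WDR5A_RNAi libraries thus lay above both Col-0 libraries of their set, and 1.50 was above every other library of the set. This difference in the ratio was not tested. RBL overlaps NADK1 on the opposite strand by 23 bases, and whether reads were counted by strand is not given in the sources used here.

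ATXR3, the main enzyme of H3K4 trimethylation in the plant, was higher in atx2/3/4/5, at 2511 and 2695 against 2116 and 2227 in Col-0 (log2 fold change 0.26 ± 0.07, adjusted p = 0.00985). It lies on chromosome 4 (8651406 to 8662587, plus strand, 21 exons). The groups did not overlap, and the rise was 1.20-fold. Without Col-0 replicate 1 the adjusted p was 0.0747, and without atx2/3/4/5 replicate 2 it was 0.0995. In atx1/2/4/5 ATXR3 was at 2180 and 2219, between the Col-0 libraries (0.02 ± 0.07, adjusted p = 0.883). The difference between the quadruple mutants passed, at -0.24 ± 0.07 for atx1/2/4/5 against atx2/3/4/5 (adjusted p = 0.0337), where 15.6% of all genes did.

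The log2 fold change of ATXR3 was above 0 in 9 of 9 comparisons, which share Col-0 libraries within a set. That of ASHH2 was below 0 in 8 of 9. The share of all genes with 1 sign throughout was not computed. In the 8 comparisons where ATXR3 was not called, its log2 fold change ran from 0.02 to 0.15. The 95% intervals there spanned 0.910-fold to 1.23-fold. In jmj24/26/28 ATXR3 was at 2307 and 2501, above both Col-0 libraries (0.15 ± 0.07, adjusted p = 0.345). In WDR5A_RNAi it was at 2493 and 2248, also above both (0.12 ± 0.07, adjusted p = 0.309). In ino80 it was at 1695 and 1562 against 1488 and 1512, and this became a call with column totals set equal (0.21, adjusted p = 0.0358).

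ATXR7, the SET-domain enzyme known for its part in FLC activation, lies on chromosome 5 (16953515 to 16961245, minus strand, 19 exons). It passed in 0 of 9 comparisons with Col-0, with 1 unadjusted p under 0.05. That was atx4/5, at 989 and 1034 against 879 and 932, above both (log2 fold change 0.16 ± 0.07, unadjusted p = 0.0343, adjusted p = 0.271). The quadruple mutants lay on opposite sides of Col-0, with 830 and 809 in atx1/2/4/5 and 1004 and 962 in atx2/3/4/5. Neither passed against Col-0 (-0.14 ± 0.07, adjusted p = 0.125, and 0.12 ± 0.07, adjusted p = 0.198), but the difference between them did (-0.26 ± 0.07, adjusted p = 0.0169). It was not called when any 1 of the 4 libraries was left out, with adjusted p from 0.0515 to 0.122, and the same held for ATXR3, with 0.0603 to 0.235. With column totals set equal, ATXR7 was also higher in atx2/3/4/5 against Col-0 (0.31, adjusted p = 0.00349), beside the shift of the median gene given above.

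The ratio of ATXR3 to ATXR7 was followed in the same way. Per kilobase, ATXR3 was 1.50 to 2.43 times ATXR7 in the 22 libraries outside WDR5A_RNAi (median 1.90). The highest values were those of ino80, 2.26 and 2.43, against 1.98 and 1.99 in Col-0 of the same set. Replicate 1 of jmj24, in set 2, was close to them at 2.25. Col-0 itself differed between sets, at 1.93 and 2.18 in set 2 and 1.63 and 1.65 in set 3. In ino80 ATXR7 was at 477 and 472 against 514 and 519, below both (-0.12 ± 0.08, adjusted p = 0.295), and ATXR3 was above both.

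**Figure D5:**
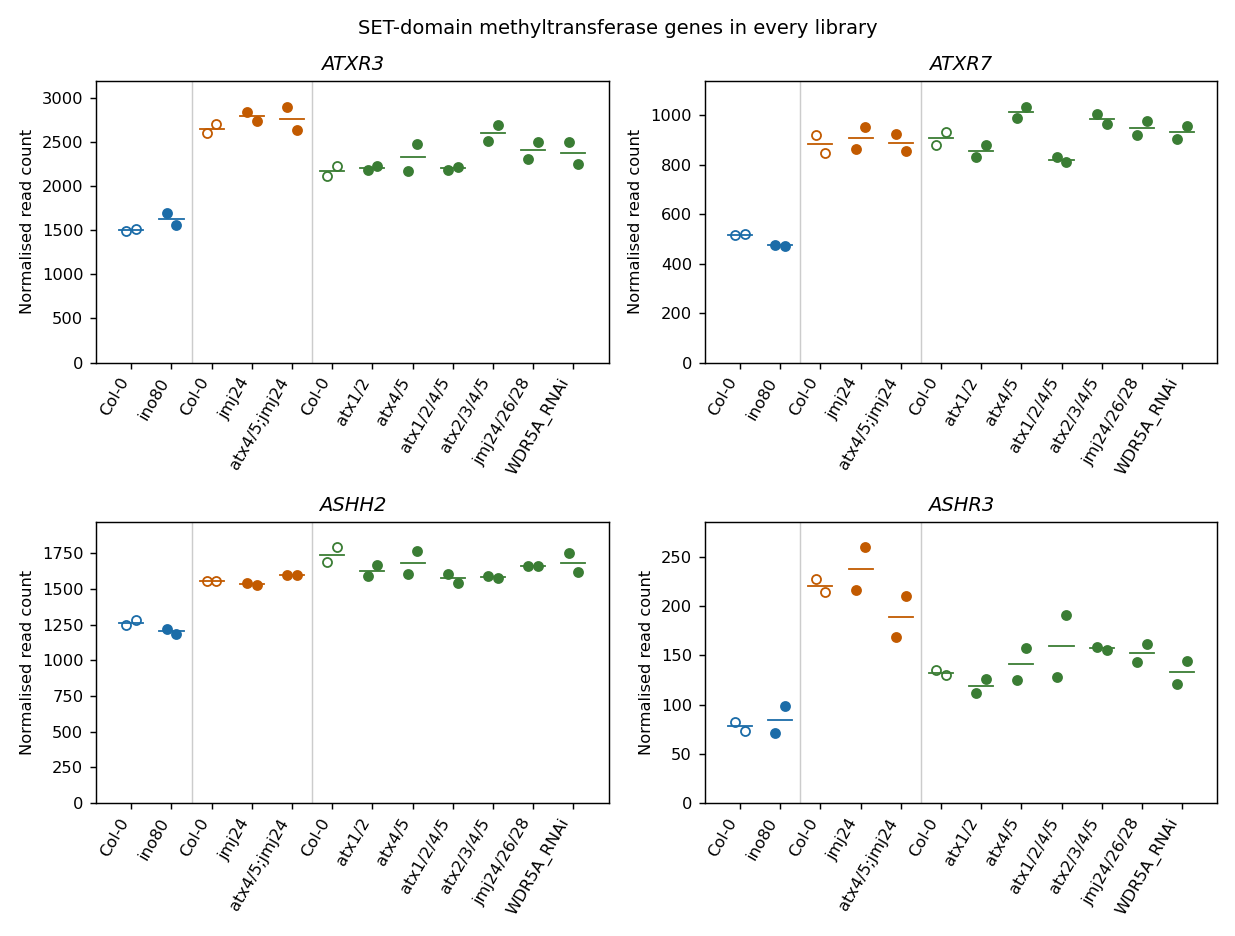
ATXR3, ATXR7, ASHH2 and ASHR3 in every library, in normalised reads on linear axes from 0, by genotype and set (open points Col-0, bars means of 2 libraries). ATXR3 and ATXR7 in set 3 are highest or near it in atx2/3/4/5, at 2511 and 2695 and at 1004 and 962, while ASHH2 in set 3 stays between 1540 and 1790.

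ASHH2 had the narrowest range of the 8 genes. It lies on chromosome 1 (29039922 to 29049454, minus strand, 18 exons). The highest library was 1.16 times the lowest in set 3, 1.04 times in set 2 and 1.08 times in set 1. It passed in 0 of 9 comparisons, with 1 unadjusted p under 0.05. In atx1/2/4/5 it was at 1606 and 1540 against 1687 and 1790 in Col-0, below both (log2 fold change -0.14 ± 0.07, unadjusted p = 0.0416, adjusted p = 0.103). In atx2/3/4/5 it was at 1592 and 1572, also below both (-0.14 ± 0.07, adjusted p = 0.117). With column totals set equal these values were -0.01 and 0.05, so the sign in atx2/3/4/5 depended on the scaling. The 95% intervals over all 9 comparisons spanned 0.822-fold to 1.12-fold. ASHH2 overlaps AT1G77290 on the opposite strand by 296 bases, and that gene was lower in both quadruple mutants (log2 fold changes -0.44 and -0.43).

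ASHR3, a SET-domain gene known for its expression in stamens and dividing root cells, had the lowest counts of the 4 enzymes and the widest spread among them. It lies on chromosome 4 (15024444 to 15027672, plus strand, 11 exons). In set 3 it ran from 111 to 191 with a median of 139, and the 2 libraries of atx1/2/4/5 alone were at 127 and 191. It passed in 0 of 9 comparisons, with no unadjusted p under 0.05, and the 95% intervals spanned 0.679-fold to 1.57-fold. In set 2 it was at 216 and 259 in jmj24 and at 169 and 210 in atx4/5;jmj24, which did not overlap each other. That difference, -0.33 ± 0.15, had an unadjusted p of 0.0487 and an adjusted p of 0.496.

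Read by genotype, members were called in 3 of 9 comparisons. In atx1/2/4/5 it was 1 of 8 against 33.3% of all genes, in atx2/3/4/5 2 of 8 against 38%, and in WDR5A_RNAi 1 of 8 against 9.56%. In the other 6, limma called 0 of 8. The share of all genes called there was 22.4% in ino80, 2.82% in jmj24, 7.71% in atx4/5;jmj24, 0.282% in atx1/2, 3.24% in atx4/5 and 3.85% in jmj24/26/28. Among these 6, only atx4/5 held a member with an unadjusted p under 0.05, ATXR7. The median size of the members' log2 fold change was 0.12 in ino80, 0.14 in atx1/2/4/5 and 0.13 in atx2/3/4/5, against 0.23, 0.29 and 0.32 over all genes. Groups without overlap, with each mutant library above, or each below, the Col-0 pair, were found for 6 of 8 members in ino80, where 62.6% of all genes had them, and for 6 each in atx1/2/4/5 (64.4% of all genes) and atx2/3/4/5 (68.4%). For WDR5A_RNAi it was 4 of 8 (54.9% of all genes) and for jmj24/26/28 also 4 (43.9%). It was 3 in atx4/5;jmj24 (50.7%) and atx4/5 (44.4%), and 2 in jmj24 (46.8%) and atx1/2 (35.8%).

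In the comparison of atx4/5;jmj24 with jmj24, which adds atx4 and atx5 to jmj24, limma called 0 of 8 members and 0.746% of all genes. ASHR3 was the 1 member with an unadjusted p under 0.05. In that of WDR5A_RNAi with atx1/2/4/5, 3 members passed, against 31.5% of all genes. WDR5A was higher (2.79 ± 0.18, adjusted p = 6.88e-08), WDR5B lower, at 110 and 98.8 against 147 and 183 (-0.65 ± 0.17, adjusted p = 0.00791), and RBL higher, at 483 and 522 against 383 and 428 (0.31 ± 0.10, adjusted p = 0.0253). The WDR5B call was lost without atx1/2/4/5 replicate 2 (adjusted p = 0.101) or WDR5A_RNAi replicate 2 (0.0595). The RBL call was lost without atx1/2/4/5 replicate 1 (0.186) or WDR5A_RNAi replicate 2 (0.152) and with column totals set equal (0.169).

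The genes of other H3K4 and related factors give the surroundings of the 8. ATX1 to ATX5, the trithorax-type enzymes, held called genes in 8 of 9 comparisons with Col-0, the exception being atx1/2. In those 8, from 2.82% (jmj24) to 38% (atx2/3/4/5) of all genes tested were called. The count includes 4 lines labelled with atx4 and atx5 mutations, in which calls of the mutated genes themselves are counted. In the lines labelled with atx mutations the mutated genes were not all lower. ATX4 fell in all 4 lines labelled with an atx4 mutation, and ATX5 in atx4/5, atx1/2/4/5 and atx2/3/4/5. In atx4/5;jmj24 ATX5 was at 518 and 638 against 434 and 476 in Col-0, above both, without passing (adjusted p = 0.0701). ATX2 was at 1313 and 1318 in atx1/2 against 1273 and 1393 in Col-0, inside the Col-0 range, and did not pass in the quadruple mutants either. ATX1 was at 181 and 181 in atx1/2 against 258 and 257, below both, but did not pass (adjusted p = 0.921). It did not pass in atx1/2/4/5 either, at 568 and 191. The spread behind the ATX1 p-values is estimated over all groups of the set, with the 568 and 191 among them. ATX3 rose in the libraries labelled atx2/3/4/5, at 740 and 640 against 388 and 384 (log2 fold change 0.83, adjusted p = 7.67e-06), and also in atx4/5 (0.43). Values of a whole gene do not show whether a transcript is intact. Outside the genotypes that carry atx mutations, ATX4 rose in ino80 (709 and 608 against 291 and 283, log2 fold change 1.19), in jmj24 (1.25) and in jmj24/26/28 (1.22), and ATX5 rose in the same 3 and in WDR5A_RNAi (734 and 661 against 472 and 547, 0.45, adjusted p = 0.0491). ATX3 rose in WDR5A_RNAi, at 542 and 620 against 388 and 384 (0.59, adjusted p = 0.00202). ATX2 fell in ino80 (660 and 643 against 865 and 847, -0.39). None of the 8 members was called in ino80, jmj24 or jmj24/26/28.

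Of 8 further SET-domain genes, of which 7 could be tested, 2 rose in atx1/2/4/5 and 3 in atx2/3/4/5, and none fell in either, where 33.3% and 38% of all genes were called. ATXR2 (0.46 and 0.28) and ASHR2 (0.71 and 0.57) were higher in both, and ATXR4 (0.70) in atx2/3/4/5. In ino80 ATXR2 alone of these was called, at 343 and 284 against 217 and 216. In the other 6 comparisons with Col-0 0 of the 7 were called. Among the 2 SWD2-like subunits, named for the yeast COMPASS subunit Swd2, S2La was higher in atx1/2/4/5 (301 and 263 against 187 and 250, 0.38) and S2Lb lower in ino80 (817 and 763 against 961 and 911, -0.24).

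The Paf1 complex and the enzymes that ubiquitinate histone H2B act ahead of COMPASS in yeast. Of 10 such genes, 2 rose and 3 fell in atx2/3/4/5, where 38% of all genes were called. The rises were ELF7 (0.23) and VIP3 (0.25), and the falls ELF8 (-0.21) and the ubiquitin-conjugating enzymes UBC1 (-0.27) and UBC2 (-0.16). With column totals set equal, ELF8 was at -0.02, UBC1 at -0.09 and UBC2 at 0.03, so UBC2 changed sign. ELF7 and VIP3 were then at 0.42 and 0.44. In atx1/2/4/5 ELF8 (-0.23) and UBC1 (-0.25) fell and none rose. With column totals set equal they were at -0.10 and -0.11. The ubiquitin ligase gene HUB1 fell in ino80 (-0.29) and HUB2 rose in atx4/5;jmj24 (0.30). In the other 5 comparisons 0 of the 10 were called.

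Among themselves the 8 genes moved together only in part. Across the 22 libraries outside WDR5A_RNAi, after the mean of each set was removed, the Pearson correlation of log2 values over the 28 pairs ran from -0.51 to 0.59 with a median of 0.13. The highest were RBL with ATXR7 (0.59), ASH2R with ATXR7 (0.48) and ATXR3 with ATXR7 (0.45), and the lowest was WDR5A with ASHH2 (-0.51). WDR5A and WDR5B were at 0.05, and at -0.42 with the WDR5A_RNAi libraries included. These values share libraries and scaling and describe these samples only.

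Among 19482 genes, the 2 whose pattern was most like that of each member over all 24 libraries were looked up in the same way, by Pearson correlation. Each is given with Pearson's r, Spearman's rho and, last, r without the 2 libraries farthest from the median. For ATXR3 these were GTB1 (0.88, 0.91 and 0.85) and EMB1135 (0.85, 0.83 and 0.78), and for ATXR7 AT3G63070 (0.83, 0.79 and 0.78) and AT2G44430 (0.82, 0.81 and 0.77). For ASHH2 they were AT1G04300 (0.81, 0.81 and 0.72) and UBP4 (0.80, 0.80 and 0.80), and for ASHR3 the replication factor gene MCM4 (0.72, 0.70 and 0.72) and HMGB6 (0.72, 0.73 and 0.62). Among the core subunits, RBL was most like LDA (0.79, 0.78 and 0.70) and AT1G28150 (0.78, 0.82 and 0.70), and ASH2R most like AT1G75090 (0.75, 0.61 and 0.63) and the DNA methyltransferase gene CMT2 (0.74, 0.69 and 0.76). WDR5B was most like AT3G58200 (0.77, 0.69 and 0.68) and AT3G52905 (0.75, 0.71 and 0.71). For WDR5A both values fell without the 2 farthest libraries, which were those labelled WDR5A_RNAi, for AT5G65990 from 0.91 to 0.52 (rho 0.69) and for SPS1F from 0.89 to 0.11 (rho 0.53).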

How the data were processed

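The authors deposited 3 tables of normalised signal per gene, called sets 1 to 3, in which read counts appear adjusted to a common library size within a table. The values are not whole and not scaled for length. HISAT2 2.2.0, edgeR and the build TAIR10 are named in the submitters' processing notes; read counter, strand and filters are not given in the sources used here. Per the labels, reads were 150 bases paired or 50 bases single, and the layout of each library is not given there.

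The scale was log2(value + 1), on which folds of low genes are understated. Genes with at least 1 in at least 2 libraries were kept, 22934, 23740 and 24843 in sets 1 to 3. All groups of a table entered 1 fit in limma 3.58.1 (R 4.3.3, statmod 1.5.0, trend and robust options), with Benjamini-Hochberg adjustment over all genes. The code was run on simulated whole counts with planted changes larger than most member calls here. That run checked direction and recovery of large changes, and does not measure error rates for these values. An exact permutation test of 2 against 2 libraries cannot go below p = 0.333. The plan allowed for raw counts, but the values are not counts, so the model for normalised values was used. Depth was estimated by taking the most common value near 1 in a column as 1 read. Replicate columns correlated at Pearson r 0.986 to 0.990 over genes. All 32548 identifiers matched TAIR10.1, which supplied exon lengths and sequences (read with Biopython 1.88).

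The 8 genes and the other gene lists were chosen with earlier results of these data known. Named were all 8, called genes of the lists (up to 3 per list and comparison by adjusted p; VIP3 and UBC2 in atx2/3/4/5, and ATX1, ATX2 and ATX5 where not called, were named after their values were seen), and the 2 genes most correlated with a member among those with a mean of at least 10 in each set. Alternatives were another pseudocount, no filter, no trend, quantile normalisation, a 2-group fit, a replicate block, leaving out each library and, added after the data were seen, equal column totals.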

Additional observations from a re-analysis of the deposited data

Results flagged for a closer look

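In all, 5 differences between genotypes of set 3, tested directly rather than through Col-0, passed the test for members of the group. Between the quadruple mutants, atx1/2/4/5 was below atx2/3/4/5 for ATXR3 (log2 fold change -0.24, adjusted p = 0.0337, limma) and for ATXR7 (-0.26, adjusted p = 0.0169), lower in 2 of 2 libraries for both. In that comparison 15.6% of all genes tested were called, and 56.7% had groups without overlap. Between the libraries labelled WDR5A_RNAi and atx1/2/4/5, WDR5A was higher (2.79), WDR5B lower (-0.65) and RBL higher (0.31), each in 2 of 2 libraries. There 31.5% of all genes tested were called, and 65.8% had groups without overlap. Green-shoot marker sums also differed between these genotypes, at 0.685 to 0.689 M in atx1/2/4/5, 0.562 to 0.594 M in atx2/3/4/5 and 0.867 to 0.914 M in WDR5A_RNAi. Seed marker sums were 1119 to 2539, 1075 to 1313 and 323 to 711 in the same order, and root marker sums 5439 to 6102, 5384 to 5406 and 4390 to 4462. In WDR5A_RNAi against atx1/2/4/5, 3 of 3 green-shoot markers were called higher, and 2 of 3 root markers (PHT1;1 at -0.41 and PRP3 at -0.74) and 1 of 3 seed markers (OLEO1 at -2.59) lower. Between the quadruple mutants, 3 of 3 green-shoot markers were higher in atx1/2/4/5 and 0 of 3 root and 0 of 3 seed markers were called. The part of these markers in the 5 differences was not tested.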

How the results depend on the processing

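The 8 genes in 12 comparisons gave 96 fold changes and 1024 values under the alternatives. Of these, 996 stayed on their side of the threshold, 23 lost a call and 5 gained one. No called value changed sign, and 67 uncalled values did. WDR5A in WDR5A_RNAi and WDR5A in atx2/3/4/5 stayed called under every alternative run. With column totals set equal, 1 member was called in ino80 (ATXR3) and 2 in atx1/2/4/5 (WDR5A and WDR5B). Without the filter, 0 were called in atx1/2/4/5 and 1 in atx1/2/4/5 against atx2/3/4/5. With 2 groups in the fit, 0 were called in atx1/2/4/5; without the trend, 1 in atx1/2/4/5 against atx2/3/4/5. The causes were not tested. Leaving out 1 library gave 0 to 1 calls in atx1/2/4/5, 1 to 2 in atx2/3/4/5, 0 to 0 in atx1/2/4/5 against atx2/3/4/5 and 1 to 3 in WDR5A_RNAi against atx1/2/4/5. An arm of 1 library is assumed to vary like the other groups.

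Replicate numbers were not treated as pairs in the main fit, and the small correlations below cannot show that no pairing existed. Deviations of same-numbered libraries correlated at 0.0844 for the 1 pair of groups in set 2 and at -0.0053 to 0.108 for the 21 in set 3. A replicate block gave 1, 2 and 1 calls in atx1/2/4/5, atx2/3/4/5 and WDR5A_RNAi, 2 in atx1/2/4/5 against atx2/3/4/5, 4 in WDR5A_RNAi against atx1/2/4/5 (ATXR7 added, adjusted p = 0.0388) and 0 elsewhere. No paired analysis was possible in set 1 or between Col-0 and the mutants of set 2, because they share no replicate numbers. Over all genes the block moved calls from 70 to 108 in atx1/2, 804 to 1357 in atx4/5, 956 to 1624 in jmj24/26/28 and 2374 to 3565 in WDR5A_RNAi.

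Counts over all genes also moved. In ino80, 5135 calls became 243 without the filter and 581 without the trend; in jmj24, 669 became 76 and 77; in atx4/5;jmj24, 1831 became 84 and 209; in atx4/5, 804 became 335 and 416; in jmj24/26/28, 956 became 389 and 476; in WDR5A_RNAi, 2374 became 1183 and 1233. In atx4/5;jmj24 against jmj24, 177 became 49 and 73, and in atx1/2/4/5 against atx2/3/4/5, 3874 became 2484 and 2499. With 2 groups in the fit, calls were 33 in atx1/2, 468 in atx4/5 and 1222 in WDR5A_RNAi. Leaving out 1 library gave as few as 400 in ino80, 178 in jmj24, 889 in atx4/5;jmj24, 18 in atx1/2, 361 in atx4/5, 396 in jmj24/26/28, 710 in WDR5A_RNAi, 34 in atx4/5;jmj24 against jmj24 and 2079 in atx1/2/4/5 against atx2/3/4/5. Equal column totals moved higher calls from 4025 of 8273 to 6506 of 9398 in atx1/2/4/5, from 4433 of 9433 to 7979 of 11245 in atx2/3/4/5, from 2451 of 5135 to 4114 of 6030 in ino80, from 760 of 1831 to 1036 of 1964 in atx4/5;jmj24, from 2195 of 3874 to 1722 of 3854 in atx1/2/4/5 against atx2/3/4/5, and from 4034 of 7823 to 2622 of 8378 in WDR5A_RNAi against atx1/2/4/5. The planned models for raw counts were not run, since the values are not counts.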
